A study of Drosophila melanogaster with 17 samples.

Results

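Described here are 31 genes of the synapse, of transmitter handling and of the excitable membrane of Drosophila melanogaster neurons. They were listed by FlyBase symbol and found through their FBgn identifiers, 31 of 31 in both count tables, among 23882 features in the head table and 18354 in the gut table. All 31 passed the filter on low counts in both tissues, where 12243 and 13453 genes were tested. By role they made 6 genes of the active zone and nerve terminal (brp, cac, futsch, unc-13, Rim and Rbp), 9 of the vesicle release machinery (Syt1, Snap25, nSyb, Syx1A, Syn, Cadps, comt, Rop and cpx) and 4 vesicular transmitter transporters (Vmat, VAChT, VGlut and VGAT). Another 4 encode transmitter synthesis enzymes (Gad1, ChAT, ple and Ddc), 2 encode plasma membrane reuptake transporters (DAT and SerT), 5 encode voltage-gated channels (para, Sh, Shab, eag and slo), and elav encodes an RNA-binding protein used as a marker of neurons.

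A nerve terminal releases transmitter when an action potential opens calcium channels at the active zone and calcium-bound synaptotagmin lets a primed vesicle fuse through the SNARE proteins. Vesicles are filled by a transporter that is particular to the transmitter, and dopamine and serotonin are afterwards taken back up by their own transporters. The fly brain uses mainly acetylcholine, GABA, glutamate, histamine and the monoamines, and the gut is innervated by neurons of the stomatogastric and central nervous systems and also holds endocrine cells that use part of the same release machinery.

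RNA selected by its poly-A tail was sequenced from mated males sampled 8 h after lights on (12 h light, 12 h dark, 25 °C, 20 flies per vial). Heads came from w1118, a white mutant strain that serves as the wild-type reference, and from orco2, which lacks the co-receptor that odorant receptors need, at day 3 and day 40 (2 libraries per group, 8 in all). Guts came from w1118, orco2 and per01, a null mutant of the clock gene period, all at day 40 (3 libraries per group, 9 in all). The labels do not say how many flies went into a library, nor whether libraries of a group came from separate vials, so each p-value reflects just how far these libraries spread, a spread that may be technical. Transcript of the white gene (w) was read at 0 to 13 counts in w1118 heads and 525 to 934 in orco2 heads, and at 0 to 28, 311 to 571 and 64 to 149 counts in w1118, orco2 and per01 guts, so the strains compared also differed at w. Transcript of period (per) also differed in level, with 4414 to 6344 counts in w1118 heads and 1411 to 1917 in orco2 heads. In guts it had 1415 to 3086 counts in w1118, 364 to 535 in orco2 and 673 to 783 in per01. The orco2 guts were thus lower than those of the period mutant. Whether w1118 and orco2 differ at the per locus was not tested. Orco had 90 to 251 counts in w1118 heads and 24 to 46 in orco2 heads, while in guts it had at most 17 in any library and gave no check of those labels.

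Libraries held 27082849 to 33932201 counts in heads and 25792664 to 41693684 in guts. Levels are given in CPM, counts per 1e+06 counts after TMM scaling within a tissue, and differences are log2 fold changes ± SE from edgeR quasi-likelihood fits. A gene rose or fell when its adjusted p over all genes tested was under 0.05. In whole heads or guts, fewer cells of a type and less RNA per cell cannot be told apart. In some groups the libraries lay apart, and with 2 in a head group the unusual one cannot be named. Replicate 2 of the day 3 orco2 heads was lower than replicate 1 for 15 of the 15 members with the longer transcripts (median log2 ratio -0.53) but for 9 of the 16 with the shorter ones (-0.029), and the median SD over members was 21.4% of the mean in that group against 2.48% in day 3 w1118 heads. Replicate 3 of the w1118 guts was the highest of its group for 24 of 31 members, with a median of 2.47 times the mean of the other two. Cell type markers also moved with the groups. Summed markers of the fat body stood at 1957 to 2474 CPM in day 3 w1118, 5854 to 8191 in day 3 orco2, 6655 to 7865 in day 40 w1118 and 13944 to 16654 in day 40 orco2 heads, those of photoreceptors at 67457 to 70858, 86994 to 87349, 107118 to 111807 and 103013 to 107531, and those of muscle at 9381 to 9889, 9011 to 9746, 3975 to 4809 and 4260.1 to 4821 in the same order. Digestive enzyme markers differed between replicates 1 and 2, at 734.8 and 15 CPM in day 3 orco2 and 153.7 and 669.8 in day 40 w1118 heads. They were at 20.3 and 23.3 in day 3 w1118 and 677.3 and 635 in day 40 orco2 heads. The part of all these markers in the head results was not tested.

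In heads every member was well covered, the lowest count being 527 for DAT. Per kb of the longest annotated transcript, the day 3 w1118 heads held most nSyb, which encodes the vesicle SNARE synaptobrevin (518 ± 14.5 CPM per kb, SD, n = 2), and least DAT, the dopamine reuptake transporter (10.7 ± 1.17), around a median of 60.5 over the 31 genes. Added up, the 31 genes made 21312 to 21375 CPM in the day 3 w1118 libraries and 17586 to 22624 in those of day 3 orco2. At day 40 the sums were 13672 to 15120.5 in w1118 and 11268 to 11844 in orco2, which is 67.5% and 54.1% of the day 3 w1118 mean. The day 40 sums lay below both day 3 groups, and the orco2 libraries were the lower of the 2 genotypes at that age. By gene, the lowest of the 4 group means was that of day 40 orco2 for 28 of 31 members and that of day 40 w1118 for the other 3 (DAT, Rop and ple).

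**Figure D1:**
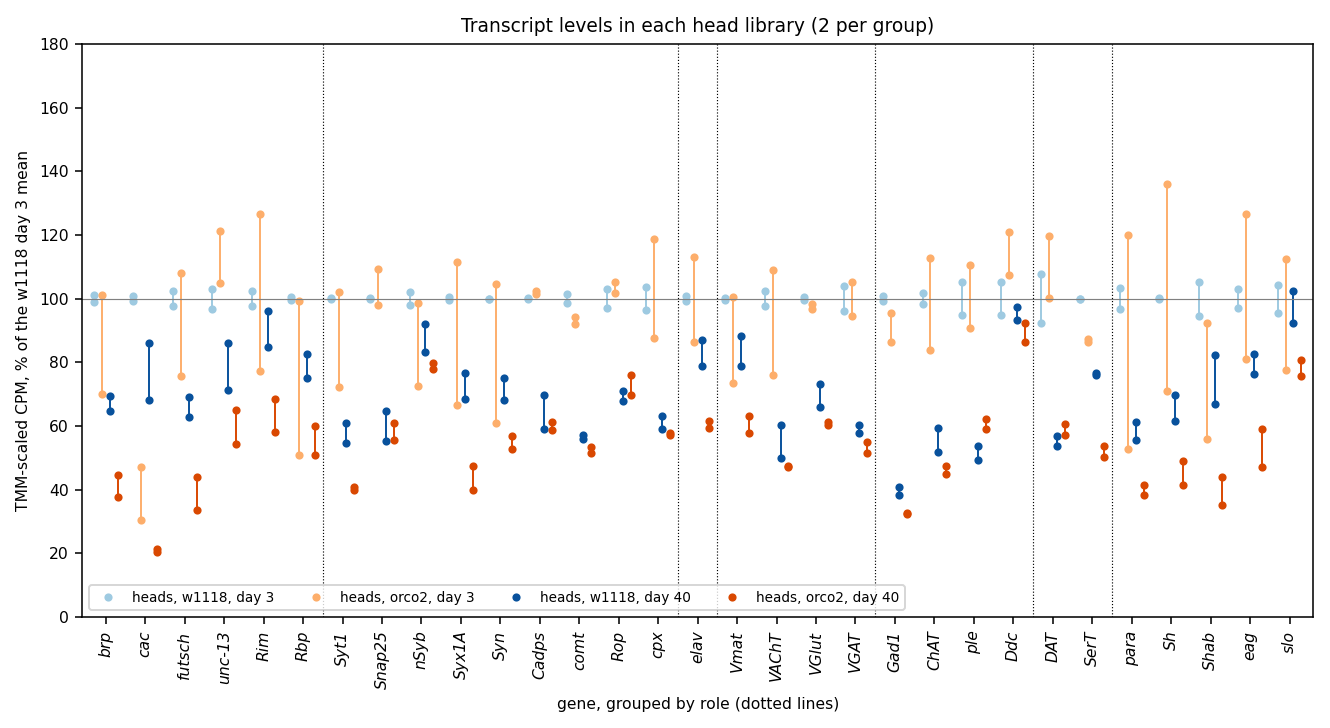
Transcript level of each of the 31 genes in each head library, in CPM as a percentage of the mean of the 2 day 3 w1118 libraries (y axis), with genes on the x axis grouped by role. Each point is a library and a line joins the 2 libraries of a group. The day 40 libraries sit lower than those of day 3 w1118 for nearly all genes, and the 2 libraries of day 3 orco2 lie far apart for many of them.

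The first comparison asked how these transcripts changed between day 3 and day 40 in the heads of w1118 males. 14 of 31 members fell and 0 rose, against 7.23% of all tested genes that fell and 8.56% that rose. All 31 estimates were below 0, with a median of -0.53 against 0.041 over all tested genes, and 29 members were lower in both day 40 libraries than in both day 3 libraries, as were 31.4% of all tested genes. The calls were unevenly spread over the roles, with 2 of 2 reuptake transporters, 3 of 4 synthesis enzymes, 3 of 4 vesicular transporters and 6 of 9 release genes but 0 of 6 active zone and terminal genes and 0 of 5 channels. These calls used a spread shared over all 8 head libraries. With the 4 w1118 libraries alone 27 of 31 members fell, as did 16.1% of all tested genes. Roles without a call in the main fit were therefore not shown to be spared.

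Gad1 (FBgn0004516, chromosome 3L, 4074077 to 4088744, BDGP6), which encodes the glutamate decarboxylase that makes GABA, stood at 1515 and 1491 CPM in the day 3 w1118 libraries and at 613 and 576 at day 40. It was the most reduced member, at 39.6% of its day 3 level (-1.34 ± 0.10, adjusted p = 0.000481). Its partner in GABA neurons VGAT, the vesicular GABA transporter, went from 156 and 144 to 90.3 and 86.6 CPM (-0.76 ± 0.11, adjusted p = 0.00377). In both, the 2 ages were far apart and the libraries of an age close together. For the dopamine pathway, ple encodes tyrosine hydroxylase, the rate-limiting enzyme, and was read at 125 and 138 CPM at day 3 and 70.4 and 64.6 at day 40 (-0.96 ± 0.13, adjusted p = 0.00292). DAT went from 35.1 and 30.1 to 18.6 and 17.5 CPM (-0.85 ± 0.14, adjusted p = 0.00705). Ddc, the decarboxylase that acts after ple and also serves serotonin synthesis and cuticle tanning, overlapped between the ages at 328 and 295 and 303 and 291 CPM (-0.069 ± 0.11, adjusted p = 0.732). Vmat, the vesicular transporter of all monoamines, did not pass either (-0.26 ± 0.16, adjusted p = 0.297). SerT, which takes up serotonin, fell by a smaller margin from 41.2 and 41.2 to 31.6 and 31.3 CPM (-0.39 ± 0.10, adjusted p = 0.042).

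Genes of cholinergic and glutamatergic transmission fell as well. ChAT, choline acetyltransferase, had 246 and 237 CPM at day 3 and 144 and 126 at day 40 (-0.84 ± 0.15, adjusted p = 0.0103), and VAChT, the vesicular acetylcholine transporter, had 444 and 464 and 274 and 227 (-0.86 ± 0.18, adjusted p = 0.0163). VAChT is nested in the ChAT locus and shares 606 exonic bases with it, 15.1% of the exonic bases of ChAT, so reads there cannot be assigned to one of them. VGlut, the vesicular glutamate transporter, went from 436 and 431 to 317 and 285 CPM (-0.52 ± 0.10, adjusted p = 0.0131). No overlap between ages was seen for these 3 genes.

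Within the release machinery, comt, which encodes the NSF ATPase that takes used SNARE complexes apart, had 706 and 729 CPM at day 3 and 401 and 411 at day 40 (-0.82 ± 0.095, adjusted p = 0.00175). The plasma membrane SNARE gene Snap25 (-0.74 ± 0.12, adjusted p = 0.00641), the calcium sensor gene Syt1 (-0.79 ± 0.16, adjusted p = 0.0148), cpx, which encodes the fusion clamp complexin (-0.71 ± 0.14, adjusted p = 0.0149), Cadps, which primes dense core vesicles (-0.63 ± 0.11, adjusted p = 0.00859), and Rop, the Sec1/Munc18 partner of syntaxin (-0.53 ± 0.10, adjusted p = 0.0129), fell too. Per library, Syt1 was read at 1626 and 1628 CPM at day 3 and 989 and 888 at day 40, Snap25 at 793 and 796 and 513 and 439.9, and cpx at 3754 and 4032 and 2455 and 2304. For all 5 genes the libraries did not overlap between ages. The vesicle SNARE gene nSyb stayed closest to its day 3 level, at 1811 and 1884 CPM against 1702 and 1539 (-0.19 ± 0.15, adjusted p = 0.426). Syx1A, the syntaxin of the plasma membrane (-0.46 ± 0.22, adjusted p = 0.199), and Syn, which encodes the vesicle-tethering synapsin (-0.48 ± 0.22, adjusted p = 0.185), did not pass.

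The 6 active zone and terminal genes had estimates from -0.60 ± 0.19 for futsch, a microtubule-associated protein of the terminal, to -0.14 ± 0.22 for Rim, a scaffold that holds calcium channels near vesicles. The scaffold gene brp (-0.58 ± 0.18, adjusted p = 0.0633) and futsch (adjusted p = 0.0681) came nearest to passing. Estimates for channels ran from -0.78 ± 0.31 for para, the voltage-gated sodium channel, to -0.04 ± 0.17 for slo, the calcium-activated potassium channel, whose libraries overlapped between ages. The neuronal marker elav did not pass (-0.27 ± 0.14, adjusted p = 0.241). It shares 27.9% of its exonic bases with a noncoding RNA gene, as Vmat does 26.2% with CG13330 and unc-13 15.6% with an antisense RNA gene. The sources used here do not say whether strand was used in counting, so counts of these genes are uncertain.

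The count of 14 depended on which libraries were used, and so did the share of all tested genes that fell. That share was 7.23% in the main fit, 16.1% with the 4 w1118 libraries alone and 1.63% with scaling to pan-neuronal genes. The count of members was 27 with the 4 w1118 libraries alone, and it also moved when single libraries were left out. The median over members was -0.52 without replicate 1 of day 3 w1118 and -0.60 without replicate 1 of day 40 w1118. Scaling to 11 other pan-neuronal genes in place of all genes left 4, with a median over members of -0.19 and a median over all tested genes that went from 0.041 to 0.383. Gad1 and ple passed under each of the 16 alternatives tried in w1118.

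**Figure D2:**
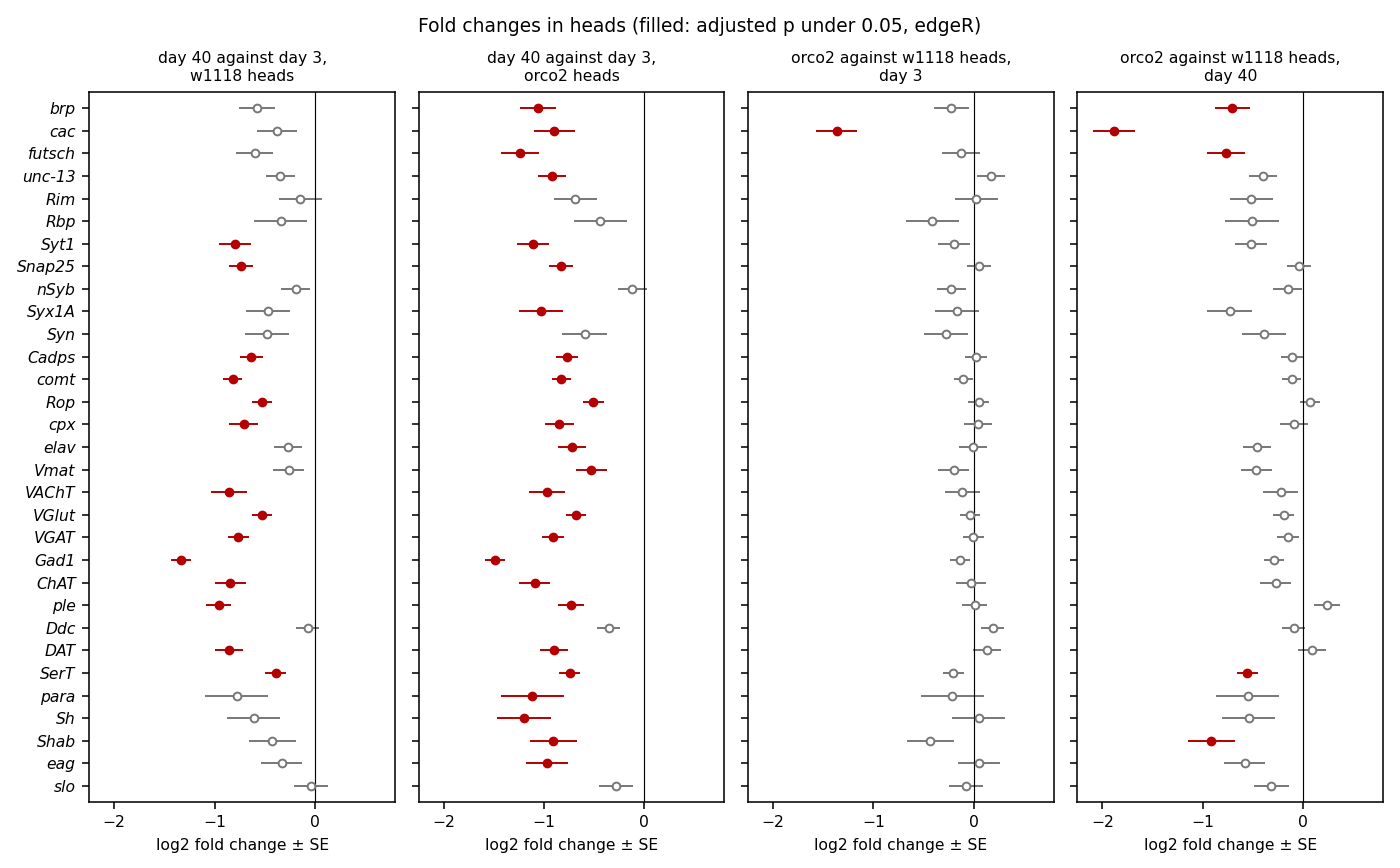
Log2 fold change (x axis, error bars are SE) of the 31 genes (y axis, ordered by role) in the 4 head comparisons, 2 libraries per group, with filled red points for adjusted p under 0.05 by edgeR. With age 14 members fell in w1118 and 25 in orco2, and between genotypes 1 fell at day 3 and 5 at day 40.

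The same comparison in orco2 heads used other libraries. Here 25 of 31 members fell and 0 rose, against 11.4% and 12.8% of all tested genes. By length of the longest transcript, 12.2% of all tested genes fell at 2 to 4 kb, 24.4% at 4 to 8 kb and 30% at 8 to 16 kb. The median was -0.85 (-0.0089 over all tested genes), and 28 members were lower in both day 40 libraries, as were 29.6% of all tested genes. All 14 members that fell in w1118 also fell in orco2, which is 14 of the 25 there. The other 11 were brp, cac, futsch, Syx1A, unc-13, elav, Vmat, para, Sh, Shab and eag. Among these stood 4 of the 6 active zone and terminal genes and 4 of the 5 channels, none of which passed in w1118 in the main fit.

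Gad1 was again the most reduced member, from 1297 and 1435 CPM at day 3 to 484 and 491 at day 40 (-1.49 ± 0.10, adjusted p = 0.000249), with no overlap. Next in size was futsch, at 1142 and 801 CPM and then 357 and 465 (-1.24 ± 0.19, adjusted p = 0.00379). Its 2 day 3 libraries differed widely but both lay above the day 40 ones. Sh, the Shaker potassium channel, had 803 and 419 CPM at day 3 and 245 and 288 at day 40 (-1.20 ± 0.27, adjusted p = 0.0154), and para had 501 and 220.3 and 159.8 and 173 (-1.12 ± 0.32, adjusted p = 0.0368). For these 2 channels the day 3 libraries were far apart, the lower one still above day 40. brp had 564 and 391 CPM at day 3 and 209.5 and 249 at day 40 (-1.06 ± 0.18, adjusted p = 0.00545). unc-13, which encodes the priming factor Munc13, was read at 1478 and 1280.03 and 665 and 794 CPM (-0.92 ± 0.14, adjusted p = 0.00394). No library of one age reached those of the other for either gene. Syt1 (-1.11 ± 0.16), ChAT (-1.09 ± 0.16), Syx1A (-1.03 ± 0.22), VAChT (-0.97 ± 0.18), eag (-0.97 ± 0.21), a potassium channel of the ether-a-go-go type, Shab (-0.91 ± 0.24), a delayed rectifier channel, VGAT (-0.91 ± 0.11) and cac (-0.90 ± 0.20) fell by similar amounts. The smallest estimates that passed were those of Rop (-0.51 ± 0.10, adjusted p = 0.0108) and Vmat (-0.53 ± 0.16, adjusted p = 0.0422).

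Members that passed in no head comparison were nSyb, Rim, Syn, Rbp, Ddc and slo. Rim (-0.69 ± 0.22, adjusted p = 0.0524) and Ddc (-0.35 ± 0.11, adjusted p = 0.0562) came nearest in orco2. Levels of nSyb were 1822 and 1343 CPM at day 3 and 1437 and 1476 at day 40 in orco2, which overlapped (-0.12 ± 0.15, adjusted p = 0.585). The count of 25 was 30 without replicate 2 of day 3 orco2, 9 without replicate 1 of day 40 orco2, 16 without replicate 2 of that group and 16 with the 4 orco2 libraries alone. Scaling to the pan-neuronal genes left 6 of them and had 1 member rise, with a median over members of -0.29 and a median over all tested genes that went from -0.0089 to 0.528. Of all tested genes 11.4% fell in the main fit, 3.71% with the 4 orco2 libraries alone and 1.68% with pan-neuronal scaling. Gad1 and Syt1 passed under each of the 17 alternatives tried in orco2.

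Whether age acted differently in the 2 genotypes was tested as an interaction over all 8 head libraries. 0 of 31 members passed by edgeR, against 0.00817% of all tested genes with a larger decline in orco2 and 0% with a smaller one. DESeq2 and limma-voom also called 0, and 3 members had an unadjusted p under 0.05 by edgeR. Estimates were below 0 for 28 of 31 members, with a median of -0.25 (-0.031 over all tested genes). futsch (-0.64 ± 0.27, adjusted p = 0.48), eag (-0.64 ± 0.29, adjusted p = 0.517) and unc-13 (-0.57 ± 0.20, adjusted p = 0.43) had low estimates, and ple (0.23 ± 0.18), nSyb (0.07 ± 0.21) and Rop (0.021 ± 0.14) were the 3 above 0. Thus the 11 members called in orco2 alone were not shown to differ from w1118 in their change with age. The median moved with single libraries, to -0.076 without replicate 1 of day 3 orco2, -0.39 without its replicate 2, -0.16 without replicate 1 of day 40 w1118 and -0.15 without replicate 1 of day 40 orco2, and it was -0.039 with the transcript length trend of each library taken out. Over all tested genes the median was -0.0081 without replicate 1 of day 3 orco2 and 0.058 without its replicate 2. Without that replicate 2 some members passed, all with a larger decline in orco2, and more of all tested genes passed too.

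Between genotypes at day 3, 1 of 31 members fell in orco2 and 0 rose, against 2.43% and 4.85% of all tested genes. The member was cac (FBgn0263111, chromosome X, 11931280 to 11985087, BDGP6), which encodes the pore subunit of the calcium channel that triggers release. Its level was 461 and 468 CPM in the w1118 libraries and 219 and 142 in those of orco2, with no overlap (38.8% of w1118, -1.37 ± 0.21, adjusted p = 0.00691). Over all members the median was -0.073 (0.015 over all tested genes), and 7 of 31 were lower in both orco2 libraries, against 23.4% of all tested genes. The next lowest estimates were Shab (-0.43 ± 0.23, adjusted p = 0.333), Rbp, a RIM-binding scaffold protein (-0.41 ± 0.27, adjusted p = 0.415), and Syn (-0.27 ± 0.22, adjusted p = 0.52). The median was -0.30 without replicate 1 of day 3 orco2, 0.048 without its replicate 2 and 0.090 with scaling to the pan-neuronal genes, so its sign rests on the library used. The number of members that fell also rose without replicate 1 of day 3 orco2, and so did the share of all tested genes that fell. The call of cac rested on replicate 1 of day 3 w1118 being kept.

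At day 40, 5 of 31 members fell in orco2 and 0 rose, against 4.89% and 8.06% of all tested genes. No member had a longest transcript under 2 kb. Of all tested genes 4.1% fell among those of 2 to 4 kb, 10.5% at 4 to 8 kb, 19.9% at 8 to 16 kb and 40.6% above 16 kb. The 26 members lower in both orco2 libraries compare with 32.9% of all tested genes, and the median was -0.39 (-0.0017). cac stood at 400.2 and 316 CPM in w1118 and at 94.6 and 99.1 in orco2 (27% of w1118, -1.89 ± 0.21, adjusted p = 0.00171). This was the lowest estimate among the members, the only one past its threshold at both ages, and it passed under each of the 17 alternatives tried at day 40. SerT had 31.6 and 31.3 CPM in w1118 and 20.7 and 22.1 in orco2 (-0.56 ± 0.11, adjusted p = 0.0146). Levels of futsch were 730.5 and 666 and 357 and 465 CPM (-0.76 ± 0.19, adjusted p = 0.0365). For brp they were 387 and 360.2 and 209.5 and 249 CPM (-0.70 ± 0.18, adjusted p = 0.0386), and for Shab 399 and 324 and 170.2 and 213 (-0.92 ± 0.24, adjusted p = 0.0421). All 5 genes were lower in each orco2 library than in each w1118 library. The day 40 genotype comparison shares libraries with both age comparisons, so its values and theirs are not independent. In the other direction, ple (0.24 ± 0.13) and DAT (0.088 ± 0.14) were higher in both orco2 libraries, and neither passed (adjusted p = 0.254 and 0.726). The share of all tested genes that were higher in both is not given here. The count of 5 was 10 by DESeq2 and 15 with the 4 day 40 libraries alone, all of them lower in orco2. It went up without either library of day 3 orco2 and down without any one of the day 40 libraries. In each of these cases the share of all tested genes that fell moved the same way. With scaling to the pan-neuronal genes 1 member fell and 1 rose. The median was -0.26 without replicate 1 of day 40 w1118 and -0.23 without replicate 1 of day 40 orco2. With pan-neuronal scaling it was 0.0066, the median of all tested genes going from -0.0017 to 0.389. The share of all tested genes that fell moved too, to 11.6% with the 4 day 40 libraries alone, 7.52% by DESeq2 and 1.36% with pan-neuronal scaling.

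Transcript length went with these differences. Members were divided at the median length into 15 longer and 16 shorter ones, among which the longest annotated transcript ran to 22.3 kb for futsch. With age in w1118, 2 of the 15 longer members and 12 of the 16 shorter ones fell in the main fit. In orco2 the counts were 12 of 15 and 13 of 16. These calls used a spread shared over all 8 head libraries. With the 4 w1118 libraries alone 27 of the 31 members fell with age, so the split by length in w1118 holds for the main fit only. Between genotypes at day 40, 4 of the 15 longer and 1 of the 16 shorter members fell, with medians of -0.52 and -0.15. All tested genes showed the same direction with length at day 40. Their median log2 fold change between genotypes was 0.14 for transcripts up to 2 kb, -0.030 from 2 to 4 kb, -0.25 from 4 to 8 kb, -0.40 from 8 to 16 kb and -0.63 above 16 kb. The members within 8 to 16 kb had a median of -0.52. With age in orco2 the medians of all genes ran from 0.15 up to 2 kb to -0.49 from 8 to 16 kb and -0.61 above 16 kb, and the members of 8 to 16 kb had a median of -0.90. With age in w1118 the same classes of all genes stayed between -0.097 and 0.099, while the members of 2 to 4 kb had a median of -0.75. With the length trend of each library taken out, 2 members fell and 1 rose in orco2 at day 40 in place of 5 that fell, 17 fell with age in orco2 in place of 25, and 15 with age in w1118 in place of 14. Of all tested genes 2.7%, 7.69% and 7.61% then fell in these comparisons, in that order. The median over members went from -0.39 to -0.038 between genotypes at day 40, from -0.85 to -0.41 with age in orco2 and from -0.53 to -0.40 with age in w1118.

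**Figure D3:**
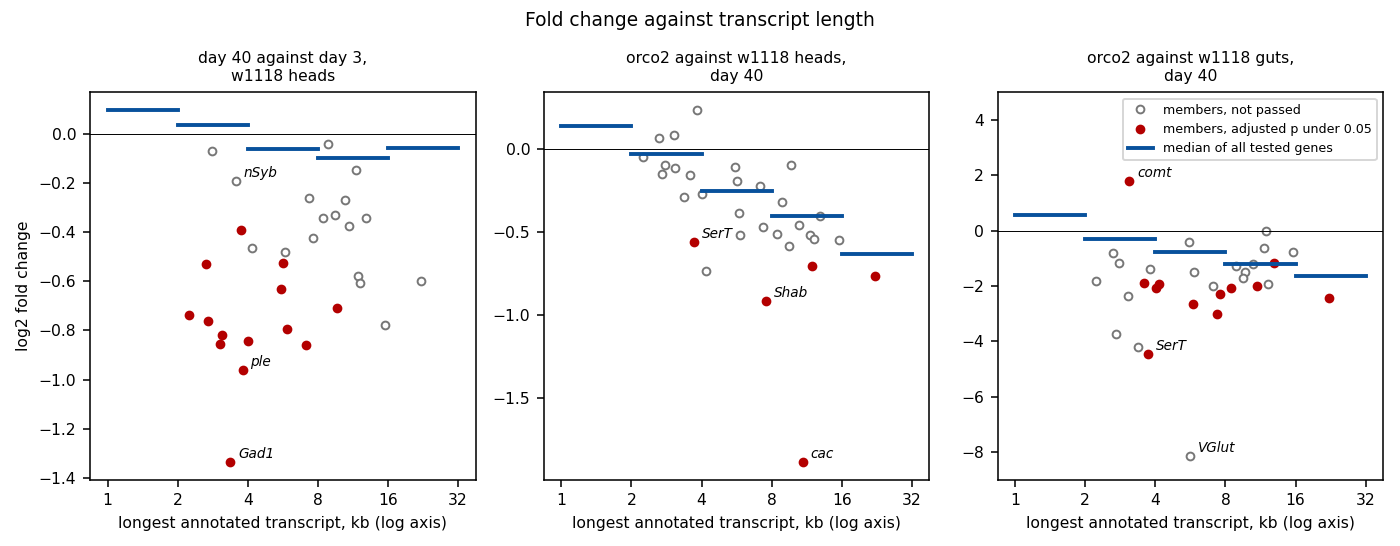
Log2 fold change (y axis) of the 31 genes against the length of their longest annotated transcript in kb (log x axis) in 3 comparisons. Red points have adjusted p under 0.05, open points do not, and blue bars are medians of all tested genes by length class, which fall with length in both genotype comparisons and hardly with age in w1118.

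Other genes of these pathways were counted from fixed lists, and the lists were not tested against the members. With age, 7.23% of all tested genes fell and 8.56% rose in w1118, and 11.4% fell and 12.8% rose in orco2. Of 41 tested genes of the vesicle cycle and active zone, 14 fell in w1118 and 30 in orco2, while 0 and 1 rose. Examples are Syngr, which encodes the vesicle protein synaptogyrin (-0.95 ± 0.10 in w1118 and -1.03 ± 0.10 in orco2), shi, the dynamin of vesicle retrieval (-0.81 ± 0.098 and -0.94 ± 0.098), and nwk, an adaptor of endocytosis at terminals (-0.91 ± 0.12 and -1.13 ± 0.12). Among 13 acetylcholine receptor and recycling genes 8 fell in w1118 and 11 in orco2, with nAChRalpha4 at -0.84 ± 0.14 and -1.13 ± 0.14. Of 22 receptor and uptake genes for GABA, glutamate and histamine 7 fell and 1 rose in w1118, and 14 fell and 1 rose in orco2. The GABA receptor subunit gene Lcch3 (-0.93 ± 0.16 and -0.98 ± 0.16) and the metabotropic GABA-B-R2 (-0.67 ± 0.13 and -1.01 ± 0.13) fell in both. Of 23 monoamine synthesis and receptor genes 8 fell and 1 rose in w1118, and 13 fell and 1 rose in orco2. The gene that rose in each was Hn, which encodes phenylalanine hydroxylase (1.25 ± 0.26 and 1.55 ± 0.26), while Pu, the first enzyme of pterin cofactor synthesis, fell (-1.43 ± 0.16 and -0.85 ± 0.16). Among 31 other channel genes 9 fell and 2 rose in w1118, and 22 fell and 0 rose in orco2. The leak channel gene sand (-2.14 ± 0.24 in w1118) and the potassium channel gene Shal (-0.80 ± 0.10 and -0.98 ± 0.10) were among them. Of 11 other pan-neuronal genes 1 fell in w1118, the sodium pump subunit nrv3 (-1.22 ± 0.13), and 7 in orco2.

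Between genotypes, 2.43% of all tested genes fell and 4.85% rose at day 3, and 4.89% and 8.06% at day 40. At day 3 no gene of the vesicle cycle, acetylcholine, GABA and glutamate, or pan-neuronal lists passed by edgeR, and 4, 1, 3 and 2 of them, in that order, had an unadjusted p under 0.05. In the monoamine list 3 genes rose and 1 fell at day 3, led by Dop2R, a dopamine receptor (1.60 ± 0.15), and Hdc, which makes histamine (0.73 ± 0.096). At day 40, 4 rose and 2 fell, among them Dop2R (1.03 ± 0.15), Hn (1.49 ± 0.26) and the octopamine receptor gene Octbeta3R (-0.60 ± 0.13). The channel list had 8 of 31 genes that fell and 0 that rose at day 40, such as slob, which encodes a partner of the slo channel (-0.64 ± 0.11), and na, the sodium leak channel (-0.54 ± 0.12). In the vesicle cycle list 3 of 41 fell and 1 rose, with Rab3-GEF at -0.61 ± 0.14 and the active zone gene Fife at -0.47 ± 0.12. CadN (-0.71 ± 0.13) and Fas2 (-0.50 ± 0.11), both adhesion proteins of axons, were the 2 of 11 pan-neuronal genes that fell.

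In guts the members were scarcer and more variable. Their sum was 559 to 1015 CPM in w1118, 286 to 306 in orco2 and 338 to 516 in per01, so the mean of orco2 was 41.3% and that of per01 57.2% of w1118. The w1118 libraries lay above those of both mutants in sum. The mean of w1118 was the highest of the 3 groups for 28 of 31 genes, the exceptions being comt, highest in orco2, and ple and slo, highest in per01. The median SD over members was 65.3% of the mean in w1118, 13.4% in orco2 and 49.99% in per01. For 5 members (DAT, Gad1, VAChT, VGAT and VGlut) at least one gut library held 3 counts or fewer, 3 counts being the most that a reading of 0 allows, and such limits cover counting error only.

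Set against heads of the same strain and age on the scale of CPM per kb, each tissue scaled alone and with no test, the members were higher in w1118 heads by a median of 33.6 times, and by more than 10 times for 26 of 31. VAChT (152 times), Snap25 (121), Syt1 (97.8) and ChAT (96.9) stood at one end. At the other were SerT (0.63 times), ple (1.11), Syx1A (2.79) and Rop (2.93). Per kb, Rop, which also serves secretion outside neurons, was the most abundant member in w1118 guts (49.1 ± 27.6 CPM per kb, SD, n = 3), followed by ple (15.9 ± 12.6) and SerT (13.4 ± 6.96), orders that these spreads do not separate. In heads SerT was the second lowest of the 31 per kb.

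**Figure D4:**
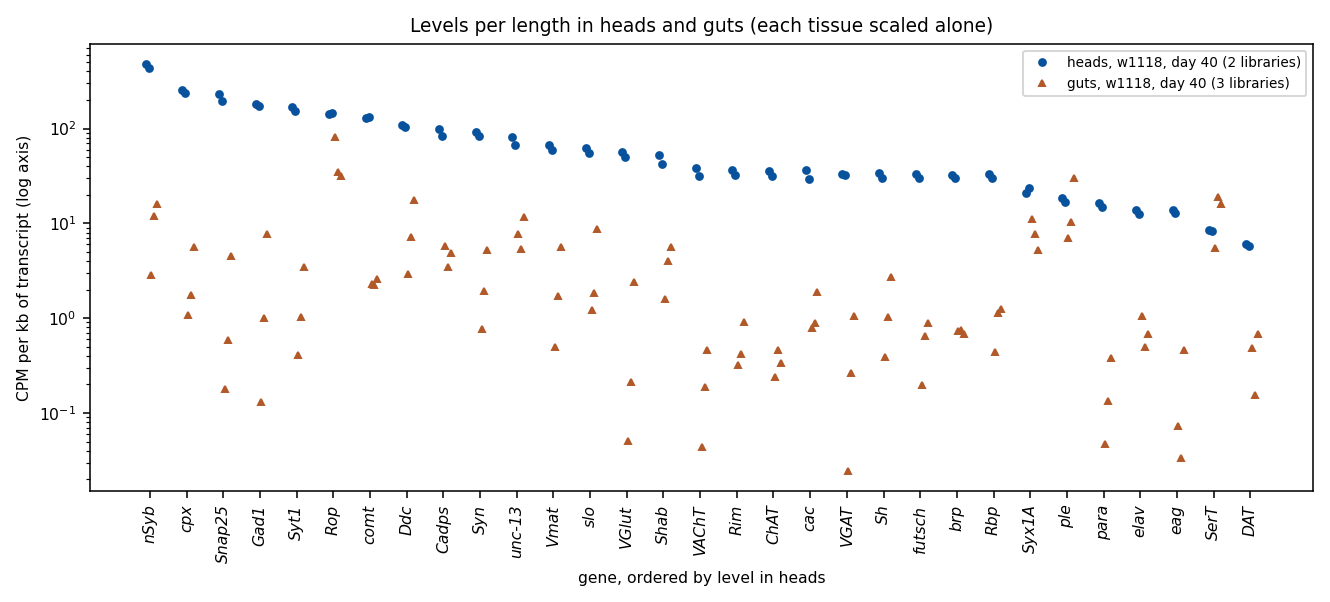
Level of the 31 genes in CPM per kb of the longest annotated transcript (log y axis) in the 2 head libraries (circles) and 3 gut libraries (triangles) of w1118 at day 40, with genes ordered by level in heads. Most genes lie 1 or more decades lower in guts, whereas SerT and ple reach their head level in some but not all of the gut libraries.

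Between orco2 and w1118 guts, 11 of 31 members fell and 1 rose, against 15.1% and 11.5% of all tested genes. No member was shorter than 2 kb, and of all tested genes 19.4% fell among those of 2 to 4 kb, 38.6% among those of 4 to 8 kb and 54.9% among those of 8 to 16 kb. In the last class the median was -1.26 for members and -1.20 for all genes. The median was -1.89 (0.058 over all tested genes), and 13 members were lower in each orco2 library than in each w1118 library, as were 26.1% of all tested genes. Those that fell were 4 of the 6 active zone and terminal genes (unc-13, Rbp, cac and futsch), 3 of the 9 release genes (Syx1A, nSyb and Syn) and Vmat, ChAT, SerT and Shab. In per01 guts 8 of 31 fell and 0 rose, against 9.33% and 9.66% of all tested genes, with a median of -1.13 (0.0042). By length, 10.6%, 27.3% and 40.7% of all tested genes fell in the same 3 classes. Without replicate 3 of w1118 the median was -1.14 in orco2 and -0.43 in per01, and with the length trend taken out it was -0.71 and -0.34. Lower in each per01 library were 10 members, as were 16.6% of all tested genes. The 8 that fell were Shab, SerT, unc-13, Rbp, Syx1A, nSyb, Rim and Cadps. Both comparisons used the same 3 w1118 libraries, so the values are given side by side and their overlap is no separate result.

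SerT was covered by 929, 2641 and 1702 counts in the w1118 guts, 97, 89 and 120 for orco2 and 46, 86 and 10 for per01. In CPM these were 20.6, 69.9 and 59.3, 2.01, 2.26 and 2.62 and 1.38, 4.36 and 0.466, and all mutant libraries lay below the lowest of w1118. It was the most reduced member that passed, at 4.61% of w1118 in orco2 (-4.44 ± 0.81, adjusted p = 0.00947) and at 4.13% of it for per01 (-4.60 ± 0.82, adjusted p = 0.0103). It passed under 16 of the 17 alternatives in orco2 and all 17 in per01. Levels of Syx1A were 46.5, 31.9 and 21.6 CPM with w1118, 8.03, 8.24 and 10.2 with orco2 (-1.92 ± 0.36, adjusted p = 0.0102) and 12.2, 8.16 and 15.7 with per01 (-1.47 ± 0.35, adjusted p = 0.0252). The potassium channel gene Shab was read at 12, 30.2 and 42.6 CPM, then 5.25, 5.43 and 6.53 (-2.30 ± 0.44, adjusted p = 0.0107) and 5.44, 4.76 and 6.66 (-2.33 ± 0.44, adjusted p = 0.0121). In these genes the w1118 libraries spread over a wide range, the orco2 ones over a narrow one, and the groups did not overlap.

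For unc-13 the w1118 levels were 100.1, 68.7 and 149 CPM, those of orco2 49.2, 48.1 and 45 (-1.16 ± 0.27, adjusted p = 0.0205) and those of per01 37.8, 41.1 and 44.5 (-1.36 ± 0.28, adjusted p = 0.0148). Rbp had 3.72, 9.63 and 10.4 CPM, then 1.81, 2.05 and 1.86 (-2.05 ± 0.50, adjusted p = 0.022) and 1.35, 1.32 and 2.75 (-2.13 ± 0.50, adjusted p = 0.0237). Neither gene overlapped between w1118 and a mutant. nSyb, by contrast, overlapped, since replicate 1 of w1118 was as low as the mutants at 10.2, 43 and 56.9 CPM against 9.15, 11.1 and 9.41 and 4.72, 6.84 and 11.2 (-1.89 ± 0.58, adjusted p = 0.0449, and -2.28 ± 0.59, adjusted p = 0.0322). In orco2, Syn (-2.63 ± 0.66, adjusted p = 0.0239), futsch (-2.43 ± 0.73, adjusted p = 0.041), Vmat (-3.02 ± 0.76, adjusted p = 0.0251) and ChAT (-2.06 ± 0.53, adjusted p = 0.0263) fell, whereas in per01 their estimates were -0.80 ± 0.62, -2.40 ± 0.73, -1.88 ± 0.73 and -0.96 ± 0.52 and did not pass. ChAT rests on 14 to 70 counts per library in these 2 groups. cac had 8.69, 9.79 and 20.8 CPM in w1118 and 2.51, 4.06 and 3.34 in orco2, without overlap (-1.98 ± 0.51, adjusted p = 0.0254), and 3.07, 5.83 and 9.04 in per01, with overlap (-1.13 ± 0.49, adjusted p = 0.143). In per01, Rim (-1.59 ± 0.44, adjusted p = 0.0393) and Cadps (-0.90 ± 0.25, adjusted p = 0.0406) fell, against -0.61 ± 0.43 and -0.40 ± 0.25 in orco2.

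comt (FBgn0000346, chromosome X, 13259021 to 13262488, BDGP6) moved the other way. It had 7, 6.9 and 7.95 CPM in w1118 guts, 21.3, 29 and 25 in orco2 and 11.1, 3.7 and 7.08 in per01. Every orco2 library lay above all others, at 344% of w1118 (1.78 ± 0.38, adjusted p = 0.0154), and per01 did not pass against w1118 (adjusted p = 0.999). Between the 2 mutants comt fell in per01 (-1.78 ± 0.39, adjusted p = 0.0402). It was the only one of 31 members that passed there, against 2.07% of all tested genes that fell and 3.33% that rose. Markers of testis, sperm and accessory gland also stood at 667 to 1822 CPM in w1118 guts, 7528 to 12490.2 in orco2 and 800.4 to 13803 in per01. Their part in the comt result was not tested.

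Genes of GABA and glutamate neurons were concentrated in replicate 3 of the w1118 guts. VGlut was read 13, 45 and 395 times in w1118, whereas orco2 libraries had 2, 0 and 0 and per01 libraries 0, 0 and 48 counts. Gad1 was counted 20, 129 and 750 times in w1118 libraries, 27, 20 and 26 times with orco2 and 20, 3 and 114 times with per01. VGAT followed with 3, 27 and 81 counts (w1118), 8, 0 and 4 (orco2) and 6, 0 and 14 (per01). Within w1118 the third library held more of each than the other two together. Neither mutant passed for any of the 3 genes (adjusted p = 0.0523, 0.0762 and 0.113 in orco2). That library also had 49.1 CPM of neuronal peptide markers, against 5.27 and 5.77 in the other two of its group. Without it, 3 members fell and 1 rose in orco2 in place of 11 and 1, and 3 fell and 2 rose in per01 in place of 8 and 0. Of all tested genes 9.04% then fell in orco2 and 3.88% in per01. DESeq2 called 13 in per01, where 17.7% of all tested genes fell. Leaving out replicate 3 of orco2 left 0 calls in orco2, and replicate 2 of orco2 left 1, with 3.25% and 4.64% of all tested genes falling.

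**Figure D5:**
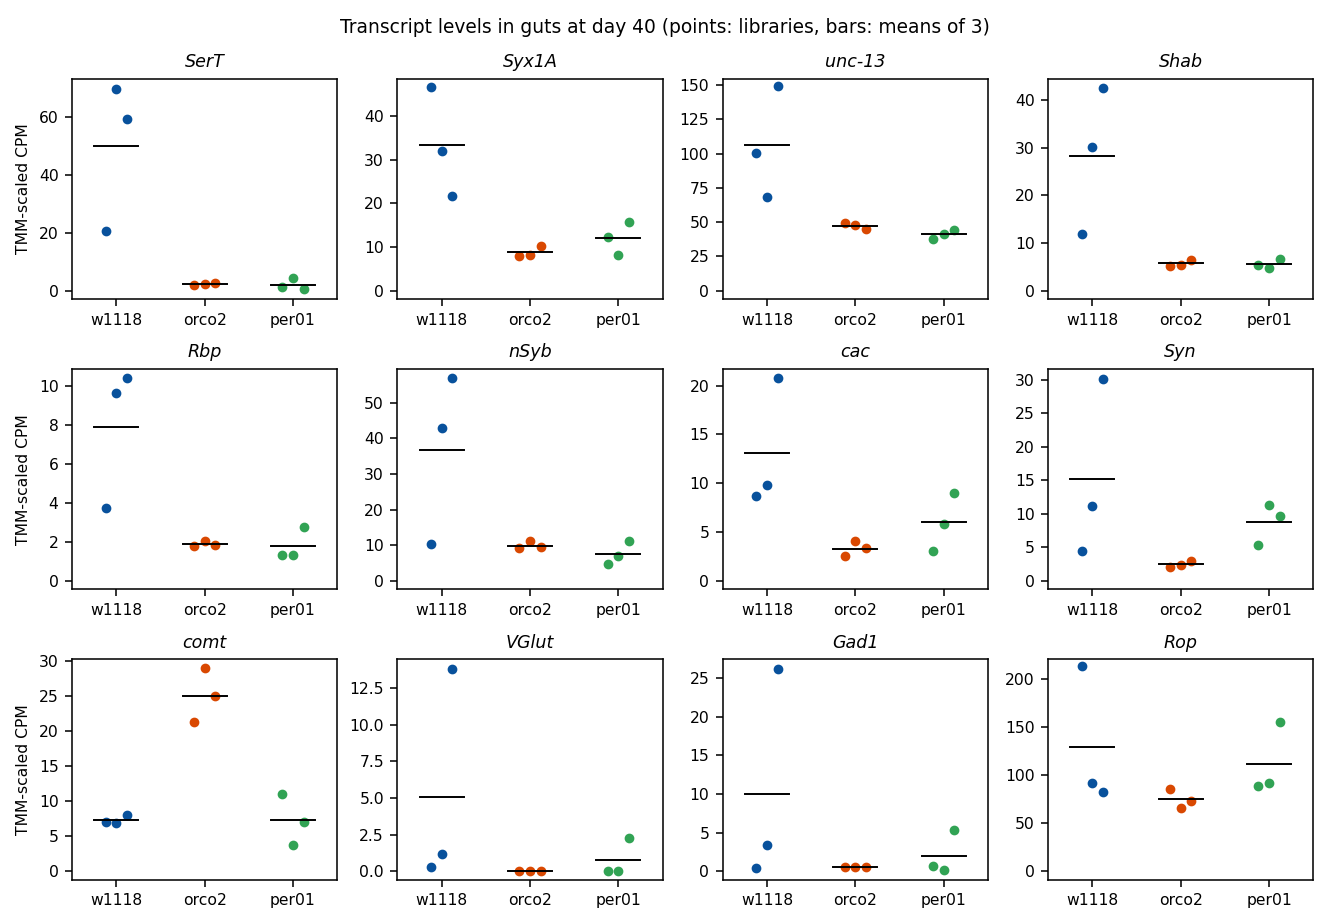
Level of 12 of the genes in CPM (y axis, own scale in each panel) in the 9 gut libraries at day 40, where points are libraries and bars the means of 3. SerT, Syx1A, unc-13, Shab and Rbp are lower in all mutant libraries than in those of w1118, comt is highest in orco2, and VGlut and Gad1 are mostly in 1 w1118 library.

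Markers of several cell types differed between the gut groups beside these genes. Over 11 other pan-neuronal genes, none of them at 0 in any gut library, the sums were 491 to 986 CPM in w1118, 424 to 469 in orco2 and 336 to 426 in per01. Muscle markers stood at 6055 to 8708, 2734 to 3384 and 4315 to 6288 CPM, and glial markers at 1166 to 2998, 688 to 753 and 903 to 1554. Digestive enzymes of enterocytes made 11945 to 25447, 19125 to 37020.2 and 112054 to 210186 CPM, and markers of enteroendocrine cells 210.3 to 593, 397 to 468 and 1148 to 1792. Summed muscle and glial markers were thus lower in orco2 than in w1118, digestive ones far higher in per01, and their part in the gut results was not tested. Single glial markers did not all follow the sum. Gat rose in both mutants, and alrm and gcm stood at 0 in some gut libraries. The glial sum of w1118 guts spanned the 1970 to 2112 CPM of day 40 w1118 heads, and which gut cells held these transcripts was not tested. Scaled to the pan-neuronal genes, 4 members fell and 1 rose in orco2 and 3 fell in per01, with medians over members of -1.11 and -0.64. The median of all tested genes went from 0.058 to 0.52 and from 0.0042 to 0.352. Length went with the gut differences too, the median of all tested genes running from 0.58 up to 2 kb to -1.65 above 16 kb in orco2 and from 0.31 to -1.44 in per01. With that trend taken out, 1 member fell and 1 rose in orco2 and 1 fell in per01. Of all tested genes 7.34% in orco2 and 3.42% in per01 then fell, and with pan-neuronal scaling 3.02% and 2.48%.

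The counts of other pathway genes in guts can be read against the 15.1% of all tested genes that fell and the 11.5% that rose in orco2, and the 9.33% and 9.66% in per01. Of them, 11 of 41 vesicle cycle genes fell and 2 rose in orco2, and 5 fell and 0 rose in per01. Syngr (-2.60 ± 0.45 in orco2 and -2.03 ± 0.44 in per01), the postsynaptic scaffold gene dlg1 (-1.40 ± 0.20 and -0.97 ± 0.20) and, in orco2, the adhesion gene Nrx-1 (-2.44 ± 0.37) were among those that fell. In the acetylcholine list, of 14 tested genes 1 fell in orco2 and 3 in per01, with the muscarinic receptor gene mAChR-A falling in each (-3.21 ± 0.51 and -4.28 ± 0.55). In the GABA, glutamate and histamine list 3 of 21 fell and 1 rose in either mutant. Grd, a GABA or glycine type receptor gene (-2.66 ± 0.33 and -1.40 ± 0.32), and GABA-B-R2 (-2.45 ± 0.50 and -3.06 ± 0.52) fell, while the GABA uptake transporter gene Gat rose (2.96 ± 0.71 and 2.80 ± 0.71). Among 22 monoamine genes 5 fell in orco2 and 6 in per01, led by Pu (-2.12 ± 0.33) and Tdc1 (-1.93 ± 0.33) in orco2, and by Tdc2, the neuronal tyrosine decarboxylase (-3.24 ± 0.73), and Pu (-1.35 ± 0.33) in per01. Of 30 channel genes 11 fell and 1 rose in orco2, and 6 fell and 1 rose in per01, with the T-type calcium channel gene Ca-alpha1T at -1.42 ± 0.23 and -1.47 ± 0.23.

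Heads and guts of orco2 at day 40 came from separate libraries. cac, futsch, SerT and Shab fell in both, which is 4 of the 5 that fell in heads and 4 of the 11 that fell in guts. The share of all tested genes that fell in both is not given here, so this overlap is no separate result. Longer genes fell more often in both tissues (19.9% in heads and 54.9% in guts at 8 to 16 kb). cac, futsch and Shab were among the longer members. With the length trend taken out, 2 members fell in heads and 1 in guts. The estimates in heads were -1.89 ± 0.21 for cac, -0.76 ± 0.19 for futsch, -0.56 ± 0.11 for SerT and -0.92 ± 0.24 for Shab. In guts they were -1.98 ± 0.51, -2.43 ± 0.73, -4.44 ± 0.81 and -2.30 ± 0.44, each further below 0, although the difference between tissues was not tested.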

How the data were processed

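The deposited files are 2 tables of raw read counts per gene, 1 for heads and 1 for guts. Per the submitters' processing notes the authors used fastp, HISAT2 and featureCounts with dm6, and DESeq2, while the annotation release and the settings for strand and multiply mapping reads are not given in the sources used here. No column of per-sample values was left unused (0). From 60.3 to 75.5% of counts between 1 and 20 per library were even numbers, so counting limits may be too narrow.

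Each tissue was fitted alone on the deposited counts by edgeR (version 4.0.16, run in R 4.3.3, with TMM scaling, glmQLFit and glmQLFTest on group means over all libraries of the tissue, no covariates, genes kept by filterByExpr at a minimum count of 10), with Benjamini-Hochberg adjustment over all genes tested and a threshold of 0.05. The fits were tested on simulated data. Lengths, positions and overlaps come from the BDGP6 annotation. The 31 members, pathway lists, markers and tests were chosen with earlier results of these data known. All members were named, and of each other list up to 3 called genes with the smallest p per comparison. One list entry (Caps) matched no identifier. Sequences were not used here. Alternatives were DESeq2 1.42.0 (size factors or Wald test), limma-voom (limma 3.58.1), no count filter, a replicate block, the libraries of the 2 groups alone and each library left out. Scaling to pan-neuronal genes, removal of the length trend and a crossed block were added after seeing the data. When 1 of 2 head libraries was dropped, the remaining one borrowed its spread from the other groups.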

Additional observations from a re-analysis of the deposited data

Results flagged for a closer look

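The contrast of orco2 with w1118 at day 40 went opposite ways in heads and guts for 2 members, in every library of each tissue on the CPM scale. comt was lower in both orco2 heads (383 and 370.3 against 401 and 411 CPM, log2 fold change -0.11, which did not pass) and higher in the 3 orco2 guts (21.3, 29 and 25 against 7, 6.9 and 7.95 CPM, 1.78). DAT was higher in both orco2 heads (19.8 and 18.6 against 18.6 and 17.5 CPM, 0.088) and lower in the 3 orco2 guts, at 0.415, 0.228 and 0.131 against 1.46, 0.476 and 2.06 CPM (-2.35). In guts this rests on 20, 9 and 6 counts against 66, 18 and 59, which overlap before scaling. Neither value of DAT passed. The difference between the tissues was not tested, since the tables were scaled and fitted separately.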

How the results depend on the processing

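The members called in orco2 against w1118 heads at day 3 numbered 1 and ranged from 0 to 13 with single libraries left out. At day 40 the 5 became 10 without a count filter and by DESeq2, 2 with a replicate block or pan-neuronal scaling (where 1 of the 2 rose), 15 with the 2 groups alone, 3 with the length trend removed (1 rose), and 1 to 18 with libraries left out. With age in w1118 the 14 became 27 with the 2 groups alone, 4 with pan-neuronal scaling and 3 to 27 with libraries left out. In orco2 the 25 became 16 and 7 under the first 2 of these settings (1 of the 7 rose) and 9 to 30 with libraries left out. The interaction had 0, or 0 to 5 with libraries left out. In orco2 guts the 12 became 5 with pan-neuronal scaling, 2 without the length trend and 0 to 16 with libraries left out. In per01 guts the 8 became 13 by DESeq2, 4 by limma-voom, 5 with a replicate block or the 2 groups alone, 3 with pan-neuronal scaling, 1 without the length trend and 2 to 10 with libraries left out. Between per01 and orco2 guts the 1 became 3 by DESeq2, 2 by limma-voom, 0 with a replicate block or pan-neuronal scaling, 4 with the 2 groups alone and 0 to 4 with libraries left out. Each remaining setting stayed within 1.5 times the count given. Estimates turned for Rop (0.030) and Vmat (0.041) with age in orco2 under pan-neuronal scaling and for unc-13 (0.33) in orco2 guts without the length trend. The share of all tested genes that were called also moved with the settings, so these changes are not particular to the members. Why the counts moved was not tested.

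Replicate numbers did not pair the libraries, the correlations of same-numbered deviations running from -0.264 to 0.0548 in heads and -0.551 to 0.263 in guts, so the replicate block is given only here. It left 1, 2, 13, 24 and 0 calls in the 5 head comparisons and 8, 5 and 0 in guts. Crossed numbers were tried after seeing the data. Same-numbered correlations were -0.136 between genotypes at day 40 and -0.131 with age in orco2, and crossed ones 0.136 and 0.131. With crossed numbers 21 and 24 members were called in these comparisons, fitted on the 4 libraries alone. With 2 head libraries per group, small differences were not detectable, and in guts counts of 3 or fewer in DAT, Gad1, VAChT, VGAT and VGlut limit their estimates.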

Other observations

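Between the 2 gut mutants, some members were higher in each per01 library than in each orco2 library, although none of them passed. The share of all tested genes that did so is not given here, so they are listed as single genes. Tyrosine hydroxylase (ple) had 73.6, 78.1 and 94.9 CPM in per01, 28.2, 18.9 and 22.7 in orco2 and 26.9, 39.5 and 115 in w1118 (1.82 ± 0.50 for per01 against orco2, adjusted p = 0.062 by edgeR). The calcium-activated channel gene slo had 31.1, 35.5 and 42.2, 15.5, 15.1 and 13.3 and 10.9, 16.2 and 78.1 CPM in the same order (1.31 ± 0.65, adjusted p = 0.166). Syn, the synapsin gene, had 5.38, 11.3 and 9.64, 2.1, 2.36 and 2.9 and 4.45, 11.1 and 30.2 CPM (1.84 ± 0.64, adjusted p = 0.0875). Syt1, Rop, Vmat and ChAT were also higher in each per01 library.

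The scaffold gene brp spread little in w1118 guts, with 8.71, 9.05 and 8.05 CPM in w1118 and 8.72, 7.64 and 9.08 in orco2 (-0.021 ± 0.39, adjusted p = 0.968), and it had 7.61, 2.69 and 3.68 in per01. It was among the 3 members of w1118 guts that were highest in replicate 2, with ChAT and SerT, while Syx1A, Cadps, Rop and elav were highest in replicate 1.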
